A study of Mus musculus with 10 samples.

Results

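Transcript levels of the receptors for insulin and the insulin-like growth factors (IGFs), and of the adaptor proteins that bind them, were examined in pieces of mouse pancreas tail. The genes were taken by symbol from the table of raw counts. They were Insr, Igf1r, Igf2r, Irs1, Irs2, Grb10 and Shc1, 7 of the 24421 genes in the table. All 7 passed the filter on low counts, as did 13688 genes in all. RNA came from female mice aged 12 weeks, with 1 library per mouse. All mice carried Ptf1aCreER, a Cre recombinase under the control of Ptf1a, a gene of the enzyme-secreting acinar cells, and the nuclear reporter nTnG. The groups differed in Insr: 3 mice were Insr w/w with 0 floxed alleles (WT), 3 were Insr w/f with 1 floxed allele (Het) and 4 were Insr f/f with 2 floxed alleles (KO). The floxed segment of an allele is removed only in cells where Cre acts, so the other cells of a piece keep intact Insr in every group. How Cre was induced and what the mice were fed are not given in the sources used here.

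Insulin and the IGFs signal through receptor tyrosine kinases of 1 family. INSR and IGF1R bind their ligands, phosphorylate themselves and recruit the scaffold proteins IRS1 and IRS2, which pass the signal to PI3K and AKT, while SHC1 links the receptors to the MAP kinase cascade. GRB10 binds the active receptors and dampens them, and IGF2R is a receptor without a kinase domain that removes IGF2 from the cell surface and sorts lysosomal enzymes.

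Gene counts ran from 11718559 to 19024351 per library. Digestive enzyme transcripts took 15.7% of the gene counts in library WT-2404, 58.3% and 71.4% in the other WT libraries, 71.2% to 76.1% in Het and 62.3% to 77.3% in KO libraries. WT-2404 therefore stood apart from all others in its enzyme share. Its protocol text also differs from that of the other libraries, naming pulverised frozen tissue and another column kit. Whether its handling differed is not clear from the labels, and its part in the WT comparisons cannot be told apart from that of the mouse. Values without WT-2404 are given beside the results that it moved most. In a tissue piece, fewer cells of a type and less RNA per cell cannot be told apart. Levels are counts-per-million (CPM) of the library size scaled with TMM factors, unless another scale is named. These factors ran from 0.596 in KO-2126 to 3.54 in WT-2404.

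Insr itself, the gene with the floxed alleles, was counted 253 to 1259 times per library. Its level was 21.0, 27.8 and 40.5 CPM in the WT libraries, 43.2, 44.2 and 28.2 CPM in the Het libraries and 22.7, 33.3, 35.5 and 34.7 CPM in the KO libraries. The lowest value lay in WT-2404 and the next in KO-2079, and the 3 groups overlapped. The log2 fold change of KO against WT was 0.09 (SE 0.26, edgeR adjusted p = 0.864), a fold of 1.06 with a 95% interval of 0.721 to 1.56. Het against WT was 0.37 (SE 0.27, edgeR adjusted p = 0.437) and KO against Het was -0.29 (SE 0.26, edgeR adjusted p = 1.0). Het against WT was 0.18 without WT-2404, 0.67 without WT-2067 and 0.064 with the enzyme share as a covariate. KO against Het was -0.16 without KO-2079 and -0.47 without Het-2042. The sign of KO against WT rested on single libraries, since leaving out WT-2404 gave -0.12, leaving out KO-2124 gave -0.0021 and leaving out WT-2067 gave 0.38. Gene counts include reads from every exon and every cell of the piece, so they do not check recombination, and the genotypes here are those of the labels.

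**Figure D1:**
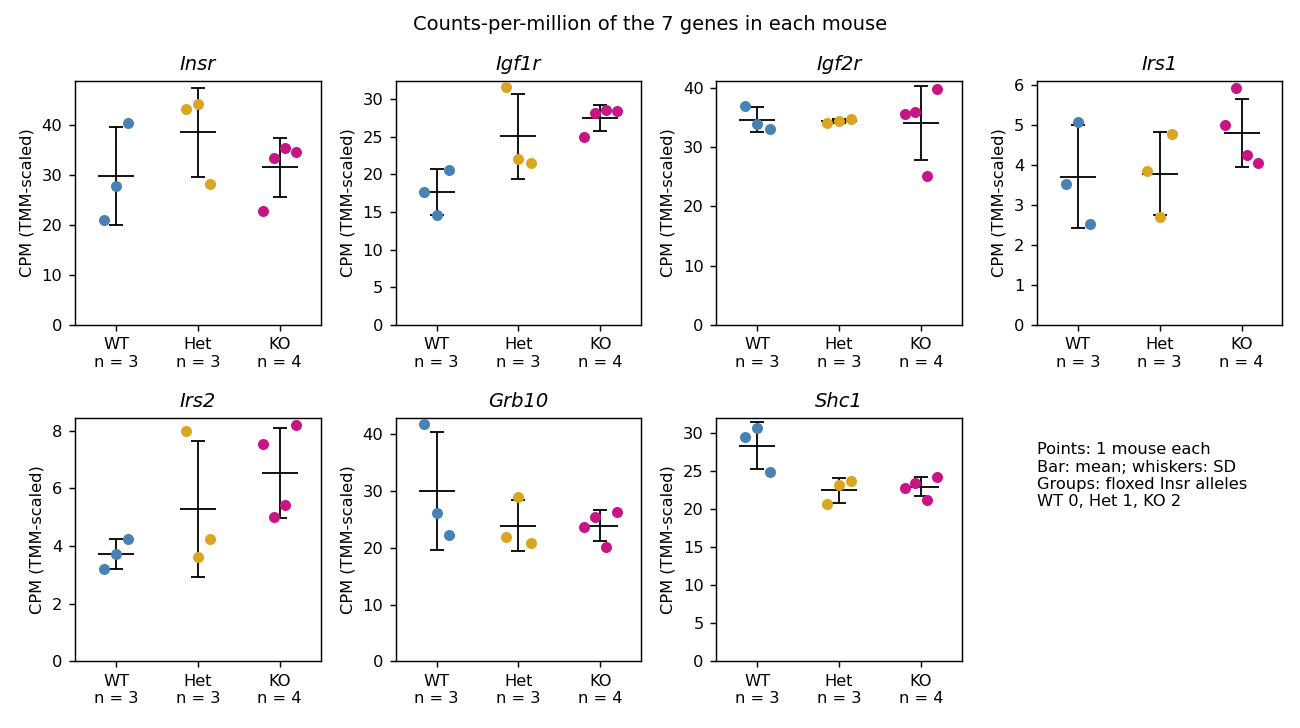
Level of each of the 7 genes by group, in CPM on a linear axis that starts at 0, with 1 point per mouse and the group mean and SD as bar and whiskers. Igf1r and Irs2 lie higher in every KO mouse than in any WT mouse, Shc1 lies lower, and Insr overlaps between the groups.

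Igf1r, which encodes the receptor tyrosine kinase for IGF1, was at 17.7, 14.5 and 20.7 CPM in WT, 31.6, 22.1 and 21.5 CPM in Het and 25.0, 28.2, 28.5 and 28.4 CPM in KO libraries. On the TMM scale all Het and all KO libraries lay above all WT libraries. As CPM of the counts outside the enzyme genes, Het-1770 at 58.8 and Het-2042 at 65.0 lay below WT-2404 at 74.2. The KO libraries stayed above WT there, but narrowly, with KO-2126 the lowest at 74.6. The KO against WT difference was 0.64 on the log2 scale (SE 0.19), a fold of 1.56 with a 95% interval of 1.17 to 2.08. It had the smallest p of the 7 genes (edgeR unadjusted p = 0.00516) but did not pass after adjustment over all genes (edgeR adjusted p = 0.119). Permuting the mice in an exact test gave p = 0.0286, the smallest that 3 against 4 mice allow. The difference was 0.64 without WT-2404 and 0.62 with the enzyme share as a covariate. With library size alone as the scale it was -0.53, beside a median of -1.17 over all genes. Of the other settings tried, 2 brought Igf1r past the threshold: DESeq2 (adjusted p = 0.0453, where it called 7.48% of all genes) and edgeR without WT-2067 (adjusted p = 0.0362, where it called 13.6% of all genes).

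Het against WT gave 0.51 for Igf1r (SE 0.20, edgeR adjusted p = 0.207), a fold of 1.42 with a 95% interval of 1.05 to 1.92. The value without Het-2066, the highest of all 10 libraries, was 0.31. KO against Het gave 0.14 (SE 0.19, edgeR adjusted p = 1.0), with an interval of -0.27 to 0.54 on the log2 scale, and ran from 0.036 without Het-2042 to 0.34 without Het-2066.

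Igf2r had the smallest spread over all libraries relative to its mean. It stood at 37.0, 33.9 and 33.0 CPM in WT, 34.1, 34.4 and 34.9 CPM in Het and 35.6, 36.0, 25.1 and 39.8 CPM in KO libraries. KO-2124 was the lowest and KO-2126 the highest library of all. The group means were 34.7 ± 2.09 CPM in WT (SD, n = 3), 34.5 ± 0.376 CPM in Het (SD, n = 3) and 34.1 ± 6.32 CPM in KO (SD, n = 4). On the log2 scale KO differed from WT by -0.02 (SE 0.18, edgeR adjusted p = 0.946), a fold of 0.983 with a 95% interval of 0.748 to 1.29. Leaving out WT-2404 gave a log2 value of 0.020, and leaving out KO-2124 gave 0.081. Igf2r lies opposite Airn, an antisense RNA that had 2 to 26 counts per library, and the exons of the annotation did not overlap (0 bases).

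The insulin receptor substrate genes were the least abundant. Irs1 had 29 to 211 counts per library and stood at 3.53, 5.09 and 2.51 CPM in WT, 3.86, 2.70 and 4.79 CPM in Het and 5.01, 5.93, 4.24 and 4.04 CPM in KO libraries. The groups overlapped, with a KO against WT log2 fold change of 0.37 (SE 0.30, edgeR adjusted p = 0.465) and a Het against WT value of 0.04 (SE 0.32, edgeR adjusted p = 0.955). Without WT-1860, which held the highest WT level, KO against WT was 0.65, and without WT-2067 it was 0.17.

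Irs2 had 38 to 192 counts per library, so its values carry more counting error than those of the receptors. It was at 3.21, 3.72 and 4.23 CPM in WT, 7.98, 3.64 and 4.24 CPM in Het and 7.54, 5.01, 5.44 and 8.19 CPM in KO libraries. Every KO library lay above every WT library, while the Het libraries were split, with Het-2066 near the top and the others close to the WT range. KO against WT gave a log2 fold change of 0.82 (SE 0.30), a fold of 1.77 with a 95% interval of 1.13 to 2.78. This was the largest difference of the 7 genes in that comparison, and it did not pass (edgeR unadjusted p = 0.0174, adjusted p = 0.143, exact permutation p = 0.0571). It was 0.72 without WT-2404. Het against WT gave 0.51 (SE 0.32, edgeR adjusted p = 0.363), which was 0.098 without Het-2066.

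Igf1r and Irs2 were the genes with all KO libraries above all WT libraries, and Irs1 and Irs2 are the paired substrates of both receptors, so the promoters of these 3 genes are shown. RefSeq windows on GRCm38.p6 were matched for 6 of the 7 genes, with no entry for Insr. Each sequence below is the 250 bases before the RefSeq start, on the gene's strand, and the RefSeq starts lie upstream of the GENCODE starts given further on. Capitals mark the motifs CACGTG (an E-box) and TGTTTTG (a FOXO-type insulin response element, searched on both strands) in the Irs1 and Irs2 windows, and GGGCGG (a GC box, also on both strands) in the Igf1r window.
Irs1, chr1:82291440-82291689, minus strand: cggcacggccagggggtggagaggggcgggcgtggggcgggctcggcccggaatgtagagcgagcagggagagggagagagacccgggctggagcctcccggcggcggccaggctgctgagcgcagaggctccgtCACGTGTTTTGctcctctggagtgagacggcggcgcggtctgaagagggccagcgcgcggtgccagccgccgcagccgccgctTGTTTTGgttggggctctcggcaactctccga
Irs2, chr8:11008930-11009179, minus strand: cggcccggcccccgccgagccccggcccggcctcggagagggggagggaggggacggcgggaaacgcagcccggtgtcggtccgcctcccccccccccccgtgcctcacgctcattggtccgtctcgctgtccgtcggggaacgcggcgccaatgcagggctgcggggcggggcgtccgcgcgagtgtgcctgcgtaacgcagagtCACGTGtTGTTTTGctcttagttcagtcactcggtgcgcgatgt
Igf1r, chr7:67952007-67952256, plus strand: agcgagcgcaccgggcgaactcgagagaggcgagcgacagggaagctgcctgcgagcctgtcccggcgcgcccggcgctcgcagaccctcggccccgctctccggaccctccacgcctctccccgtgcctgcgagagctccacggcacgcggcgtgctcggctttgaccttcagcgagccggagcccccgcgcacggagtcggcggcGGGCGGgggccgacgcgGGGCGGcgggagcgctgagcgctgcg

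The Irs1 window held 1 E-box match, starting 115 bases upstream, and 2 FOXO-type matches. The first of these started 111 bases upstream and so shared bases with the E-box. In the Irs2 window the E-box started 44 bases and the FOXO-type match 37 bases upstream. Of 32851 promoter windows of the same length, 6.02% held the E-box, 5.56% the FOXO-type motif and 0.295% held both. G and C made up 72.4% of the Irs1, 72.8% of the Irs2 and 77.6% of the Igf1r window. The median over all windows was 52.4%, so the shares over all windows are not matched for base content. The Igf1r window held 2 GC boxes and neither other motif, and 32.7% of all windows held a GC box. GC boxes were not particular to Igf1r. The Irs1 window held 2 and the Irs2 window 1, which are not marked above, and the Igf2r window held 3. Grb10 held 5 in its first window and 0 in its second, and Shc1 held 1 and 0. Of the other matched genes, the Igf2r window held 2 E-boxes, and the windows of Grb10 and Shc1 held 0 matches to either the E-box or the FOXO-type motif. A match is a run of letters and not evidence of binding.

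Grb10, the adaptor that restrains both receptors, was at 41.8, 26.1 and 22.2 CPM in WT, 21.8, 29.0 and 20.8 CPM in Het and 23.7, 25.4, 20.1 and 26.3 CPM in KO libraries. WT-2404 stood far above the other 9 libraries, which did not separate by group. On the log2 scale the difference was -0.34 in KO against WT (SE 0.23, edgeR adjusted p = 0.374) and -0.34 in Het against WT (SE 0.24, edgeR adjusted p = 0.431). Without WT-2404 these differences were -0.02 and -0.0037, so their size rested on that library.

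Shc1, which couples the receptors to the MAP kinase cascade, was at 29.5, 30.7 and 24.8 CPM in WT, 20.6, 23.2 and 23.6 CPM in Het and 22.8, 23.5, 21.3 and 24.2 CPM in KO libraries. On the TMM scale all WT libraries lay above all Het and KO libraries, with WT-2067 closest to them. As CPM of the counts outside the enzyme genes, WT-2067 stood at 76.3 and KO-2124 at 76.6, so WT and KO overlapped. The Het libraries stayed below WT there, with Het-2042 the highest at 71.3. The log2 fold change of KO against WT was -0.31 (SE 0.15, edgeR adjusted p = 0.236), a fold of 0.807 with a 95% interval of 0.642 to 1.01. The exact permutation p, on the TMM scale, was 0.0286. Het against WT was -0.33 (SE 0.16, edgeR adjusted p = 0.269). Without WT-2404 the values were -0.28 and -0.29.

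**Figure D2:**
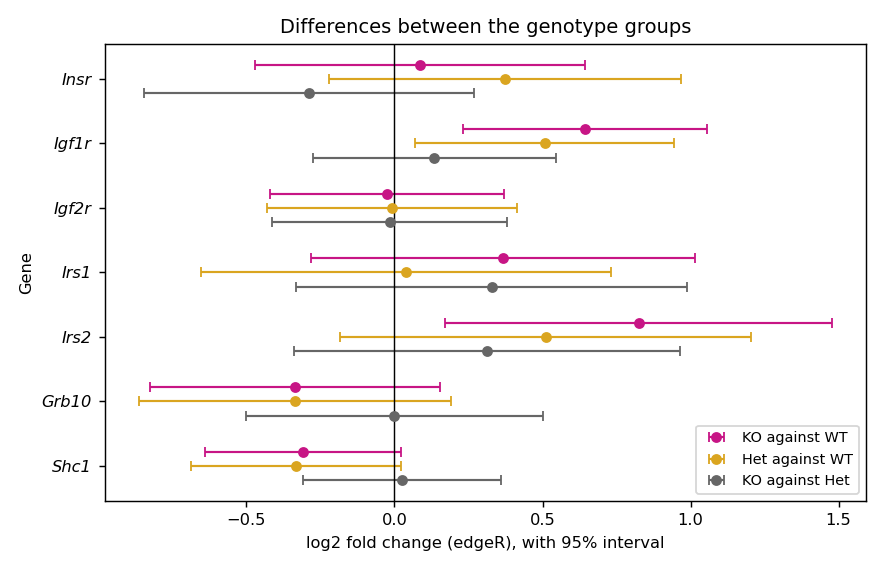
Log2 fold change of each gene in the 3 comparisons, as points with 95% intervals from edgeR's fit over all 10 libraries. The intervals of Igf1r and Irs2 in KO against WT and of Igf1r in Het against WT lie above 0, and all other intervals cross 0.

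In KO against WT, 0 of the 7 genes passed an adjusted p of 0.05 in edgeR, and the same held for 0% of all genes tested. At an unadjusted p under 0.05 there were 2 of 7 (Igf1r and Irs2, both higher), beside 23.5% of all genes. Ranges of the groups did not overlap for 3 of 7 (Igf1r and Irs2 higher, Shc1 lower), beside 15.9% of all genes. The sign was positive for 4 of 7, beside 51.9% of all genes, and the median log2 fold change of the 7 was 0.09, beside 0.03 over all genes. With so few genes these shares do not set the receptors and adaptors apart from the rest of the table. Without WT-2404, 1 of the 7 (Igf1r) had an unadjusted p under 0.05, beside 9.42% of all genes.

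In Het against WT, 0 of 7 passed in edgeR, as for 0% of all genes. Igf1r alone (1 of 7) had an unadjusted p under 0.05, beside 19.8% of all genes, and the ranges of 2 of 7 did not overlap (Igf1r higher, Shc1 lower), beside 24.8%. The sign was positive for 4 of 7, beside 50.3% of all genes. Both comparisons use the same WT libraries, so their likeness is no independent support for either.

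In KO against Het, 0 of 7 passed in edgeR, as for 0% of all genes. None of the 7 had an unadjusted p under 0.05 (0 genes, also 0 in DESeq2), beside 0.752% of all genes, and 0 had ranges that did not overlap, beside 2.46%. The sign was positive for 5 of 7, beside 51.5% of all genes.

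Markers of other cell types moved with these comparisons. The summed level of 9 fibroblast markers was 1505 to 5407 CPM in WT, 608 to 1196 CPM in Het and 544 to 1364 CPM in KO libraries, and 8 of 9 were lower in KO against WT. The WT maximum was WT-2404, and the other WT libraries were at 1505 to 2297 CPM, still above the KO libraries. The 8 macrophage markers summed to 413 to 1659 CPM in WT and 130 to 474 CPM in KO libraries, with 8 of 8 lower. Here too WT-2404 held the maximum, and the other WT libraries, at 413 to 645 CPM, overlapped the KO libraries. The 8 adipocyte markers summed to 43.2 to 54.1 CPM in WT, 72.9 to 88.2 CPM in Het and 53.6 to 95.9 CPM in KO libraries, with 6 of 8 higher in KO against WT. The 27 enzyme genes were higher in KO against WT for 27 of 27, and the 8 islet markers for 8 of 8. Enzyme genes summed to 44460 CPM in WT-2404 and 373445 to 813861 CPM in the other WT libraries, against 458478 to 1297310 CPM in KO. These sums are scaled by the TMM factors and are not shares of a library, which are given above. Islet markers summed to 468 CPM in WT-2404 and 3023 to 5625 CPM in the other WT libraries, against 3560 to 8410 CPM in KO. For both lists the other WT libraries overlapped the KO libraries. Of these 5 marker lists, the gene Amy2a5 was the only one with a library at 0 counts. The 10 ductal markers summed to 1451 to 2054 CPM in WT, 2138 to 2406 CPM in Het and 1692 to 2390 CPM in KO libraries, a sum led by Tff2 and Spp1. Single ductal markers went the other way more often, with 4 of 10 higher and 6 of 10 lower in KO against WT and a median log2 fold change of -0.97. The 7 endothelial markers summed to 109 to 171 CPM in WT, 149 to 171 CPM in Het and 105 to 220 CPM in KO libraries, with 6 of 7 higher in KO against WT. All 7 lymphocyte markers in the table were lower in KO against WT, and Cd3d, Cd8a and Ms4a1 were at 0 counts in at least 1 library. The part of these cell types in the levels of the 7 genes was not tested beyond the enzyme share.

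A ratio of the counts of 2 genes within a library does not depend on how libraries are scaled. It shows unequal change and not which gene changed. The 4 ratios were compared in each of 3 comparisons, with p-values from exact two-sided permutation tests adjusted over the 4 ratios of a comparison.

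The Igf1r over Insr ratio was 0.842, 0.524 and 0.510 in WT, 0.732, 0.5 and 0.763 in Het and 1.10, 0.846, 0.805 and 0.819 in KO libraries. Every KO library lay above every Het library, and WT-2404 alone of the WT libraries reached the KO range. The KO minus Het difference was 0.44 on the log2 scale (exact permutation p = 0.0286, adjusted p = 0.114), and 0.24 without Het-1770 (exact permutation p = 0.267). The KO minus WT difference was 0.54 (exact permutation p = 0.0857, adjusted p = 0.171). Without WT-2404 the latter was 0.78.

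The Igf2r over Igf1r ratio was 2.09, 2.33 and 1.60 in WT, 1.08, 1.56 and 1.62 in Het and 1.43, 1.28, 0.879 and 1.40 in KO libraries. All KO libraries lay below all WT libraries. On the log2 scale the WT mean was 0.99 ± 0.28 (SD, n = 3) and the KO mean 0.29 ± 0.33 (SD, n = 4), a KO minus WT difference of -0.70 (exact permutation p = 0.0286, adjusted p = 0.114). KO-2124 had the lowest ratio, with Igf2r at 25.1 CPM against 35.6 to 39.8 CPM in the other KO libraries. Its Igf1r level of 28.5 CPM was close to the 28.2 CPM of KO-2070 and the 28.4 CPM of KO-2126. Without KO-2124 the difference was -0.54.

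The Irs2 over Irs1 ratio varied as much within groups as between them, from 0.731 to 1.68 in WT, 0.885 to 2.07 in Het and 0.844 to 2.03 in KO libraries. Its KO minus WT difference was 0.38 on the log2 scale (exact permutation p = 0.429, adjusted p = 0.514), with 0.12 without WT-1860 and 0.72 without WT-2067. The Grb10 over Insr ratio was 1.99 in WT-2404, 0.548 to 0.939 in the other WT, 0.506 to 0.737 in Het and 0.568 to 1.05 in KO libraries. Its KO minus WT difference was -0.40 (exact permutation p = 0.514, adjusted p = 0.514) and turned to 0.095 without WT-2404.

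**Figure D3:**
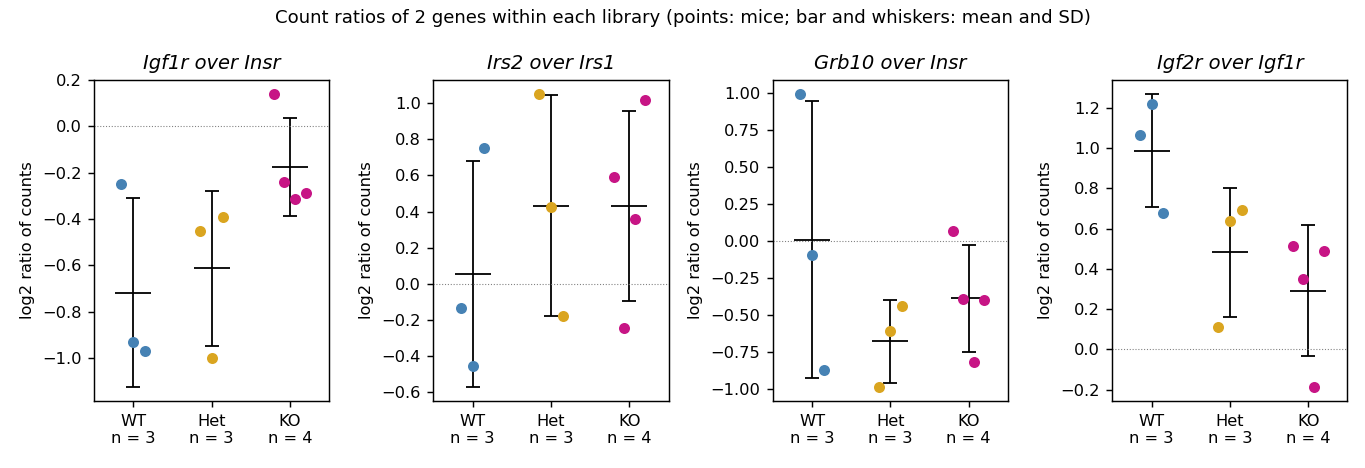
Log2 ratio of the counts of 2 genes in each library, for 4 pairs, by group, with 1 point per mouse and the mean and SD as bar and whiskers. The KO points of Igf1r over Insr lie above all Het points, and the KO points of Igf2r over Igf1r lie below all WT points.

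Levels of different genes were compared per length, as CPM per kilobase of the exons of each gene model in GENCODE M21 on GRCm38. Shc1 was highest, at 4.32 ± 0.578 CPM per kilobase over all libraries (SD, n = 10), followed by Igf2r at 3.69 ± 0.408 (SD, n = 10), Grb10 at 2.83 ± 0.692 (SD, n = 10) and Insr at 2.41 ± 0.590 (SD, n = 10). Igf1r was at 1.42 ± 0.324 (SD, n = 10), Irs2 at 0.841 ± 0.301 (SD, n = 10) and Irs1 at 0.456 ± 0.118 (SD, n = 10). Insr exceeded Igf1r, Igf1r exceeded Irs2 and Irs2 exceeded Irs1 per length in 10 of 10 libraries. Shc1 exceeded Igf2r, and Igf2r exceeded Grb10, in 9 of 10. Grb10 and Insr did not keep an order, with Grb10 higher in 6 of 10 libraries. By group, Grb10 was above Insr in WT (3.30 against 2.17) and KO (2.63 against 2.29) and below it in Het (2.63 against 2.80).

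**Figure D4:**
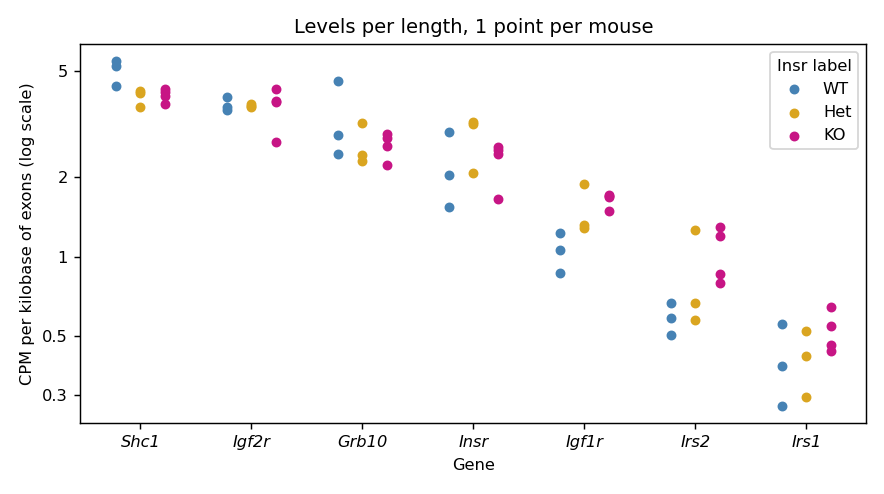
Level of each gene per length, in CPM per kilobase of exons on a log axis, with 1 point per mouse coloured by Insr label and genes in falling order of their mean. Irs1 is the lowest and Shc1 the highest by mean, and the points of Grb10 and Insr overlap.

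The gene models lie apart in the genome, on chromosomes 8 (Insr, 3122061 to 3279617, minus strand; Irs2, 10984681 to 11008458, minus strand), 7 (Igf1r, 67952827 to 68233668, plus strand), 17 (Igf2r, 12682406 to 12769664, minus strand), 1 (Irs1, 82233101 to 82291416, minus strand), 11 (Grb10, 11930508 to 12038683, minus strand) and 3 (Shc1, 89418443 to 89430027, plus strand). Exons of Irs1 overlap those of an antisense gene, Gm9747, over 2822 bases, and exons of Irs2 overlap 9530052E02Rik over 162 bases. Use of strand in counting is not given in the sources used here, so the Irs1 and Irs2 counts are uncertain to that extent.

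Across the 10 libraries, Igf1r and Shc1 ran in opposite directions on the TMM scale. Of the 21 pairs among the 7 genes, examined after the levels had been seen, theirs had the strongest correlation of log2 CPM (Pearson r = -0.898, permutation p = 0.00039, adjusted p = 0.00819 over the 21 pairs). Spearman's rho was -0.842 (permutation p = 0.00329, adjusted p = 0.0602). Without WT-1860 and Het-2066, the libraries farthest from the median of Igf1r, r was -0.759, and without WT-2404 it was -0.887. After the group means were taken off, r was -0.779, a value that was not tested. The permutations ran over all 10 libraries without regard to group. On the CPM scale used, both genes separated WT from Het and KO, so these p-values also carry the group differences. Igf1r with Shc1 was 1 of 21 pairs to pass by Pearson's r, and 0 pairs passed by Spearman's rho.

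**Figure D5:**
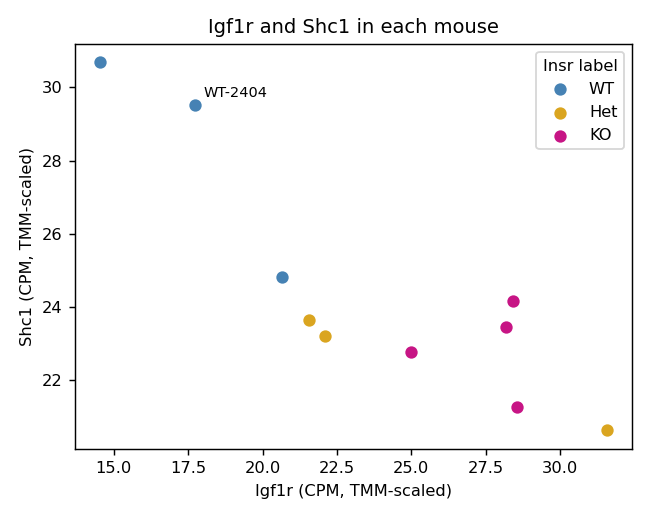
Shc1 against Igf1r in each of the 10 mice, both in CPM on linear axes that do not start at 0, coloured by Insr label. WT mice lie to the left, with Igf1r at 14.5 to 20.7 CPM, and above the Het and KO mice, with Igf1r at 21.5 to 31.6 CPM.

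Igf1r and Irs2 had the next strongest correlation (Pearson r = 0.786, permutation p = 0.00739, adjusted p = 0.0776; Spearman rho = 0.818, permutation p = 0.00573, adjusted p = 0.0602). Without WT-1860 and Het-2066 r was 0.772, and within groups it was 0.567. Insr correlated with Igf1r at r = 0.456 (permutation p = 0.184, adjusted p = 0.379; rho = 0.491, permutation p = 0.156, adjusted p = 0.400), which was 0.471 without WT-2404 and KO-2079.

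The levels of the 7 genes were also set against the enzyme share of the counts. By Pearson's r with permutation tests, 0 of 7 relations passed after adjustment over the 7 relations. Grb10 gave the strongest, at r = -0.729 (permutation p = 0.0818, adjusted p = 0.160; rho = 0.0182, permutation p = 0.973, adjusted p = 0.973). Without WT-2404 and WT-1860, the libraries farthest from the median share, its r was 0.807, so the negative relation rested on those libraries. Insr had r = 0.630 (permutation p = 0.0266, adjusted p = 0.160; rho = 0.467, permutation p = 0.179, adjusted p = 0.613), which was 0.117 without them. Igf2r had r = -0.016 over all 10 libraries and 0.893 without WT-2404 and WT-1860, the largest of the 7 genes there. The values without these libraries were not tested.

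The genes most like each of the 7 across the 10 libraries were ranked by Pearson's r of log2 CPM, over libraries that share group and tissue differences. Igf1r was most like Zfp68 (r = 0.982), Prosc (0.969) and Nars2 (0.969). Shc1 was most like Srebf2 (r = 0.964), which encodes a transcription factor of cholesterol synthesis, Pdlim5 (0.948) and Btbd10 (0.943). Igf2r was most like Scp2 (r = 0.960), which encodes a sterol carrier protein, Snx3 (0.924), a sorting nexin of endosomes, and Canx (0.924), the chaperone calnexin of the endoplasmic reticulum. Grb10 was most like Ap2a2 (r = 0.947), an adaptor subunit of clathrin coats, Chd4 (0.943) and Mapkapk2 (0.942). Insr was most like Fermt2 (r = 0.941), Fancm (0.918) and Rnf44 (0.900), Irs1 like Ephb1 (0.929), Mamdc2 (0.924) and Pusl1 (0.918), and Irs2 like Cox16 (0.896), Aldh9a1 (0.896) and Rpf1 (0.894). The ranking was unstable, since 4 of the 21 names were kept with Spearman's rho and 7 of 21 without WT-2404.

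The ligands of the receptors and the binding proteins that hold IGFs in the tissue made up a list of 12 genes. Of these, 11 were tested, and 0 passed an adjusted p of 0.05 in edgeR for KO against WT. At an unadjusted p under 0.05, 2 were higher and 3 lower, beside 9.61% and 13.9% of all genes. The binding protein genes Igfbp6 and Igfbp5 had log2 fold changes of 0.83 (SE 0.25, edgeR adjusted p = 0.121) and 0.92 (SE 0.33, edgeR adjusted p = 0.138). Igfbp4, Igfbp7 and Igfbp3 were at -1.51 (SE 0.37, edgeR adjusted p = 0.116), -0.97 (SE 0.33, edgeR adjusted p = 0.129) and -0.94 (SE 0.33, edgeR adjusted p = 0.138). For Igf1 the WT mean was 68.3 ± 16.9 CPM (SD, n = 3) and the KO mean 58.1 ± 14.6 CPM (SD, n = 4), with a log2 fold change of -0.24 (SE 0.26, edgeR adjusted p = 0.595). Igf2 was low, with a WT mean of 2.89 ± 1.37 CPM (SD, n = 3) and a KO mean of 3.38 ± 1.30 CPM (SD, n = 4). The insulin genes, expressed in islets, ranged from 213 to 2816 CPM (Ins2) and 111 to 1280 CPM (Ins1) within WT alone. Without WT-2404, both higher genes (Igfbp6 at 0.81 and Igfbp5 at 0.78) and 1 of the lower genes (Igfbp4) kept an unadjusted p under 0.05. Of all genes, 9.42% had one in either direction. Igfbp3 was then at -0.61.

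Among 18 phosphatases, ubiquitin ligases and inhibitors that act on the receptors, 17 were tested, and 4 had a positive and 13 a negative sign in KO against WT, where 51.9% of all genes were positive, with a median log2 fold change of -0.30 beside 0.03 over all genes. At an unadjusted p under 0.05, 1 was higher and 5 were lower, beside 9.61% and 13.9% of all genes. Ptpn1, the phosphatase that acts directly on the insulin receptor, averaged 26.8 ± 7.77 CPM in WT (SD, n = 3), 14.6 ± 2.62 CPM in Het (SD, n = 3) and 13.5 ± 4.52 CPM in KO mice (SD, n = 4). Its KO against WT difference was -0.98 on the log2 scale (SE 0.27, edgeR adjusted p = 0.116). Socs3, a cytokine-induced inhibitor of receptor signalling, was at -0.94 (SE 0.26, edgeR adjusted p = 0.116). Ceacam1, which takes part in insulin clearance, was at -0.68 (SE 0.25, edgeR adjusted p = 0.140), and Cav1, a caveolar protein, at 0.63 (SE 0.23, edgeR adjusted p = 0.140). Ptpn1 and Socs3 passed in DESeq2 (adjusted p = 0.0332 and 0.0319), as did 7.48% of all genes. Without WT-2404, 1 higher gene (Cav1 at 0.68) and 3 of the lower genes kept an unadjusted p under 0.05, beside 9.42% of all genes in either direction. These 3 were Ptpn1 at -0.72, Socs3 at -0.95 and Ceacam1 at -0.63.

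The other adaptors and scaffolds numbered 24, with 21 tested, 0 passing an adjusted p of 0.05 and 2 in each direction at an unadjusted p under 0.05, beside 9.61% of all genes higher and 13.9% lower. Gab1, a docking protein related to the IRS family and 1 of those higher, was at 0.45 (SE 0.17, edgeR adjusted p = 0.153). Shc2, the neuronal relative of Shc1, was at -0.97 (SE 0.36, edgeR adjusted p = 0.145), and Sh2b2 at -1.45 (SE 0.52, edgeR adjusted p = 0.139) from levels of at most 2.06 CPM. Without WT-2404, 1 of the higher genes (Gab1 at 0.45) and 0 of the lower genes had an unadjusted p under 0.05, beside 9.42% of all genes in either direction.

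Of 28 genes of the PI3K, AKT and FOXO arm, all 28 were tested. The sign was positive for 21 of them, beside 51.9% of all genes, with a median of 0.21 beside 0.03, and 0 passed an adjusted p of 0.05 in edgeR. At an unadjusted p under 0.05, 4 were higher and 1 was lower, beside 9.61% and 13.9% of all genes. Inppl1, the lipid phosphatase SHIP2, was at 0.62 (SE 0.21, edgeR adjusted p = 0.128), Foxo4 at 0.58 (SE 0.20, edgeR adjusted p = 0.130) and Rps6kb1, the ribosomal S6 kinase, at 0.71 (SE 0.30, edgeR adjusted p = 0.187). Pik3cd, the PI3K catalytic subunit of leukocytes, was at -1.57 (SE 0.43, edgeR adjusted p = 0.116), beside the lower macrophage markers given above. Without WT-2404, 2 were higher (Inppl1 at 0.43 and Foxo4 at 0.46) and 1 lower (Pik3cd at -1.23), beside 9.42% of all genes in either direction. Rps6kb1 was then at 0.38.

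The SOS and MAP kinase arm had 12 genes, all tested. Mapk3, which encodes ERK1, was the only 1 with an unadjusted p under 0.05, beside 23.5% of all genes in either direction. It was at -0.43 (SE 0.19, edgeR adjusted p = 0.194). Without WT-2404 there were 0, beside 9.42% of all genes. Among 14 FOXO-linked transcripts, 12 were tested, with 2 higher and 2 lower at an unadjusted p under 0.05, beside 9.61% and 13.9% of all genes. Txnip, an inhibitor of thioredoxin, was at 1.47 (SE 0.48, edgeR adjusted p = 0.126), and Pdk4, a kinase that shuts pyruvate dehydrogenase, at 2.18 (SE 0.83, edgeR adjusted p = 0.161), with a range of 5.80 to 132 CPM within KO alone. Gadd45a was at -1.55 (SE 0.39, edgeR adjusted p = 0.116) and Ccng2 at -0.53 (SE 0.22, edgeR adjusted p = 0.176). Without WT-2404, 1 was higher (Txnip at 1.27) and 1 lower (Gadd45a at -1.32), again beside 9.42% of all genes in either direction. Of the genes named in these lists, which were picked by their smallest p, Igfbp6, Igfbp4, Inppl1, Pik3cd, Txnip and Gadd45a also passed an adjusted p of 0.05 in DESeq2, beside 7.48% of all genes.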

How the data were processed

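RNA sequencing of pancreas tail pieces gave raw counts per gene symbol, deposited by the authors as 1 table with 1 column per mouse. Per the submitters' processing notes, the build was mm10 and DRAGEN, STAR and Cufflinks were used; their roles, the counting tool and its use of strand are not given in the sources used here. Per the labels' protocols, a stranded mRNA kit was used for 9 libraries; the protocol text of WT-2404 names pulverised frozen tissue and another column kit instead. A further part of the genotype, shared by all groups, and 1 gene of the lists are not reported here. The labels count 4 WT mice, and 1 of them was not analysed here.

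All 10 columns matched samples by title (0 left over). The 2 rows that name no gene stayed out: they took 2.59% to 8.71% (no feature) and 0.101% to 0.584% (ambiguous) of the counts. Libraries of the same group always differed by more than counting noise (chi-square per degree of freedom 26.5 to 988). The limit that a count of 0 allows (3 counts) corresponds to 0.0501 to 0.395 CPM. Counting intervals would cover counting error only. The labels name no litter or batch beyond the differing protocol text of WT-2404, and p-values measure the spread between these mice.

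Genes were filtered with edgeR's filterByExpr (minimum count 10), scaled by TMM and tested by edgeR 4.0.16's quasi-likelihood test (robust, two-sided, 1 fit over 10 libraries, Benjamini-Hochberg over 13688 genes, threshold 0.05), with SE and 95% intervals from the F statistic. Log2 CPM used a prior count of 2. DESeq2 1.42.0 and limma 3.58.1 were alternatives. Single values were compared by exact two-sided permutation over mice (35 splits for 3 against 4; 3 against 3 cannot go below p = 0.1), and correlations by 100000 permutations of the 10 libraries without regard to group. The tests were tried on simulated data. Genes, lists, tests and alternatives were chosen with earlier results of these data known. Beyond the 7 genes, the text names the 3 genes most like each, and up to 3 genes per list and direction with the smallest p under 0.05, with the ligands.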

Additional observations from a re-analysis of the deposited data

Results flagged for a closer look

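Of 11 measures tested in the 4 KO libraries, 3 had 1 library far from the others under Dixon's test of the end gap; about 0.55 would be so by chance. All 3 were in KO-2079 and share Insr or Igf1r, so they are not independent. There Insr stood at 22.7 CPM, against 33.3 to 35.5 CPM elsewhere in KO. Igf1r was at 25.0 CPM there and at 28.2 to 28.5 CPM in the others. The log2 ratio of Igf1r over Insr was 0.14 there and -0.31 to -0.24 in the others. Groups of 3 libraries were not tested.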

How the results depend on the processing

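No paired analysis was possible because the groups share no mouse numbers. The 3 to 4 mice per group and the low counts of Irs1 and Irs2 limit the precision. With library size alone as the scale, the median of all genes moved to -1.17 (KO against WT), -1.36 (Het against WT) and 0.17 (KO against Het), and the log2 fold changes moved with it. KO against WT became -0.89 for Insr, -0.53 for Igf1r, -0.88 for Irs1, -0.33 for Irs2, -1.79 for Grb10 and -1.57 for Shc1. On this scale 2 genes (Grb10 and Shc1) passed the adjusted threshold, beside 20.8% of all genes. Het against WT became -0.80, -0.82, -1.32, -0.73, -1.93 and -1.74 for the same genes. There 2 passed the adjusted threshold, beside 22.9% of all genes, and 3 had an unadjusted p under 0.05, beside 51.1%. Igf2r in KO against Het became 0.071. DESeq2 gave Igf1r 0.61 in KO against WT and so 1 gene past the adjusted threshold, beside 7.48% of all genes. With the enzyme share as a covariate, KO against WT was -0.20 for Insr and 0.016 for Grb10. There 1 gene had an unadjusted p under 0.05, beside 5.63% of all genes. Het against WT was then 0.027 for Grb10, with 0 genes at that threshold, beside 3.72% of all genes. At an unadjusted p under 0.05 in Het against WT, RLE factors gave 2 genes, beside 20% of all genes, and DESeq2 gave 2, beside 17%. Limma voom gave 2, beside 28.3%, and only the 2 groups compared gave 0, beside 19.3%.

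Values near 0 changed sign. Grb10 in KO against Het was -0.0065 with RLE, -0.016 with TMM without the enzyme genes, -0.0057 with DESeq2 and -0.011 with the covariate. Igf2r in Het against WT was 0.0048 with TMM without the enzyme genes. With voom, Igf2r was 0.054 (KO against WT), 0.021 (Het against WT) and 0.033 (KO against Het), and Irs1 in Het against WT was -0.14. With counts plus 1, Irs2 over Irs1 in KO against Het was 0.0015. On counts outside the enzyme genes, the correlation with the enzyme share was -0.031 for Igf1r and -0.33 for Irs1, and it was -0.846 for Igf2r, -0.943 for Grb10 and -0.847 for Shc1. Without WT-2404 and WT-1860 the last 3 were 0.337, 0.0609 and -0.649. Of the 21 genes most like the 7, 4 were shared with Spearman's rho and 7 without WT-2404. The cause of these changes was not tested.

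Leaving out each mouse in turn gave, in KO against WT, -0.12 to 0.38 for Insr, 0.52 to 0.77 for Igf1r, -0.11 to 0.081 for Igf2r, -0.83 to 0.095 for Grb10 over Insr, 0 to 1 genes past the adjusted threshold and 1 to 4 at an unadjusted p under 0.05. The highest counts, 1 and 4, came without WT-2067, beside 13.6% and 32.5% of all genes. The lowest unadjusted count, 1, came without WT-2404, beside 9.42%. Het against WT gave -0.035 to 0.056 for Igf2r, -0.17 to 0.32 for Irs1, -0.023 to 0.34 for Igf1r over Insr and 0 to 3 genes at an unadjusted p under 0.05. The count of 3 came without WT-2067, beside 30.1% of all genes. Counts of 0 came without WT-1860 and without Het-2066, beside 14.8% and 11%. KO against Het gave -0.10 to 0.083 for Igf2r, -0.090 to 0.16 for Grb10, -0.032 to 0.064 for Shc1, -0.31 to 0.31 for Irs2 over Irs1 and 0 to 1 genes at an unadjusted p under 0.05. The count of 1 came without Het-2066, beside 1.25% of all genes, and the counts of 0 stood beside 0.748% to 1.23%.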
